A study of Mus musculus with 12 samples.

Results

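Fc receptors are the proteins by which phagocytes recognise antibody bound to a target, and Ncf1 encodes an organising subunit of the phagocyte NADPH oxidase, the enzyme that makes superoxide when such a target is taken up. The genes described here are every row of the deposited table whose symbol begins with Fcgr or Fcer, together with Ncf1. They are 5 of the 770 genes in the table: Fcgr1, Fcgr2b, Fcgr3, Fcer1g and Ncf1. The choice used symbols and no measured value, although earlier results of these data were known when it was made.

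The samples were hippocampal total RNA from 12 C57BL6/J mice aged 13 months. They formed 4 groups of 3: females and males with the genotype labelled Control, and females and males labelled mtOgg1, written here as control and mtOGG1. By the series title the latter express OGG1, a DNA glycosylase that removes oxidised guanine, in mitochondria. The labels do not give the promoter that drives the transgene, so the cells that carry it are not known here. Probes were counted on the NanoString nCounter system, which reads barcoded molecules without amplification, and levels below are the authors' normalized counts. Values under 20 had been raised to 20, a floor that none of the 5 genes touched in any mouse.

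In the brain these genes are known mainly from microglia, the resident macrophages. Activating receptors bind the constant part of IgG and signal through a shared partner, the FcR gamma chain, whose tyrosine motif (ITAM) recruits the kinase Syk. The inhibitory receptor binds the same IgG, carries the opposite kind of motif (ITIM) and recruits the phosphatase SHIP, so that the response of a phagocyte depends on the balance of both kinds. Activated cells bring Ncf1 to the membrane to assemble the oxidase.

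Markers fixed for the cell types that could supply these transcripts placed microglia in every sample. All 11 measured microglia markers, among them Csf1r and Tyrobp, stood above the floor in all 12 mice, and their sum per mouse ran from 2252 to 3259 normalized counts. The 3 measured B cell markers, the 9 of T and NK cells and the 1 of dendritic cells stood at the floor in all mice, as did 2 of 3 for border macrophages and 3 of 4 for monocytes and neutrophils. The exceptions were the border macrophage marker Cd163, above the floor in 4 mice and at most 26.4, and Csf3r. Csf3r, of monocytes and neutrophils, exceeded it in all 12, at 26.5 to 42.1. Only 3 of 9 listed border macrophage markers and 4 of 11 for monocytes and neutrophils were in the table. Of 5 mast cell and basophil markers, Ms4a2, Cpa3 and Tpsb2 were at the floor in all mice, while Hdc exceeded it in 2 mice and Kit in all 12, at 70.1 to 128 normalized counts. Ms4a2 encodes the beta chain of the IgE receptor, so Fcer1g was read in tissue in which this specific chain was not detected above the floor. The neuronal markers were far above it, summing to between 13387 and 18892 normalized counts. In bulk tissue, fewer cells of a type and less RNA per cell cannot be told apart.

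The whole counts behind the values above the floor totalled 281838 to 418467 per mouse. For the 5 genes they were small, from 32 to 133 molecules per gene and mouse, so that counting error adds to the spread of each of their values. Slc17a6, a transporter gene of neurons mostly outside the hippocampus, ran from 195 to 1597 normalized counts across the mice, averaging 505 ± 395 (SD) over the 6 controls and 956 ± 505 (SD) over the 6 mtOGG1 animals. Ttr, a choroid plexus gene, ran from the floor to 1525. It averaged 627 ± 779 (SD, n = 3) in control males and 1353 ± 176 (SD, n = 3) in mtOGG1 males. In females it averaged 424 ± 661 (SD, n = 3) in controls and 309 ± 448 (SD, n = 3) with mtOGG1. Of the 608 genes tested below it had the highest log2 fold change over both sexes, 1.24, and in males, 2.34. Neither had an adjusted p under 0.05 (limma). Slc17a6 and Ttr can both vary with how much neighbouring tissue a sample holds, which was not measured here. Of these 2 genes only Slc17a6 was used as a covariate.

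The promoter sequences of Fcgr1 and Fcgr3 are shown because these were the members whose levels followed each other most closely from mouse to mouse, as described further on. RefSeq windows in GRCm38.p6 of 300 bases around the annotated start were found for all 5 genes, with 2 overlapping windows for Fcgr3. The Fcgr1 window is chr3:96293920-96294219 and the Fcgr3 window chr1:171059354-171059653, both on the minus strand and printed 5′ to 3′. Capitals mark the longest run of bases that both windows hold, 14 bases long.

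Fcgr1: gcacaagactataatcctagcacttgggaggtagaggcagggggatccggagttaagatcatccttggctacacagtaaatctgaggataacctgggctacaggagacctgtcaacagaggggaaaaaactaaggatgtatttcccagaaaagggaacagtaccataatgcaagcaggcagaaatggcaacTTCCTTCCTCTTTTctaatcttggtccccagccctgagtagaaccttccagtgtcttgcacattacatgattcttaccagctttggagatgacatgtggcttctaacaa
Fcgr3: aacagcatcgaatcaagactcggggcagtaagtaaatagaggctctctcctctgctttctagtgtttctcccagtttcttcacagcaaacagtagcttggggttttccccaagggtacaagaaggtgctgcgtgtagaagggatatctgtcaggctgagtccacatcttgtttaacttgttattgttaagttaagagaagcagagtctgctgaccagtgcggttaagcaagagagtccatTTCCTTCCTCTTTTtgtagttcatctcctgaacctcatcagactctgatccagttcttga

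The shared run TTCCTTCCTCTTTT begins 59 bases before the annotated start of Fcgr1 and 10 bases before that of Fcgr3 in the window printed. The longest runs shared by the other pairs of members were 7 to 9 bases, and 5 of 32851 promoter windows in the RefSeq table, belonging to 4 genes, hold the 14-base run on either strand. It contains TTCCTC, the reverse complement of GAGGAA, which is known as the core of sites bound by PU.1, a transcription factor of myeloid cells. On either strand GAGGAA was found once in the windows of Fcgr1 and of Fcgr3 and not in those of Fcgr2b, Fcer1g and Ncf1. It occurs in 28.3% of all windows. The longer GAGGAAGT, which contains it and was searched on both strands too, is held by 1052 of the 32851 windows and was in none of the 5 genes' windows. These are matches of letters and not measured binding sites.

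The first question was whether the genotype, over both sexes, moved any of these genes. No member passed: limma, fitted to the 608 genes that exceeded the floor in at least 3 mice, gave 0 of the 5 an adjusted p under 0.05 and 0 an unadjusted p under 0.05. Of all 608 genes 8 passed, a background of 1.32%. The value farthest from 1 was that of the inhibitory receptor gene Fcgr2b, at 0.85-fold in mtOGG1 mice relative to controls, and the gamma chain gene Fcer1g stood at 1.08-fold. In no member were the mtOGG1 and control mice fully separated, against 0.822% of the genes tested.

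**Figure D1:**
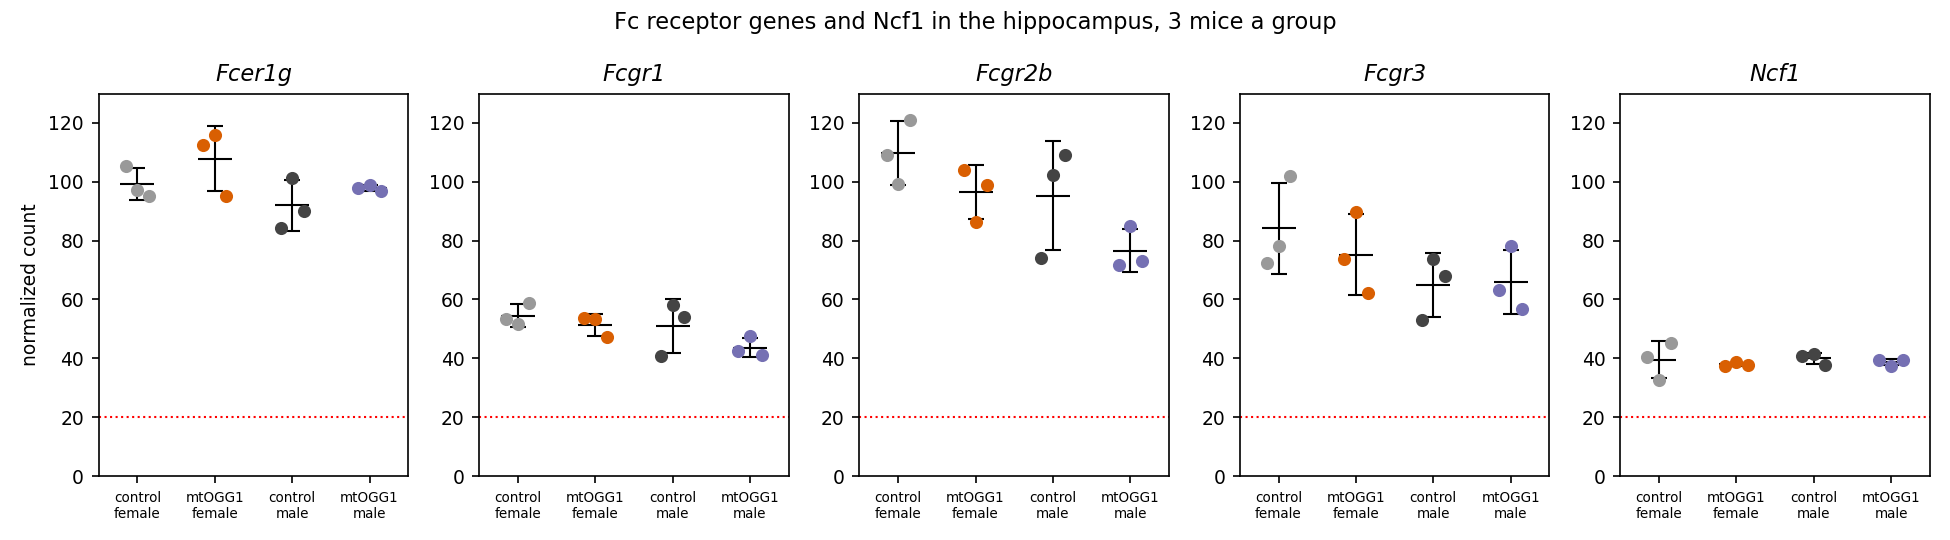
Normalized counts (vertical axis) of the 5 genes in the 4 groups of 3 mice. Points are mice, bars are means with SD, and the dotted line is the floor of 20; heights are not comparable between genes, since each has its own probe. Fcgr2b ran from 71.6 to 121 over the 12 mice, while Ncf1 stayed between 32.7 and 45.3 in all mice.

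Fcgr1 encodes the activating receptor that binds monomeric IgG with high affinity. It was read at 53.3, 51.6 and 58.8 normalized counts in the control females and at 53.8, 53.5 and 47.1 in the mtOGG1 females. The control males had 40.7, 58.1 and 54.1, and the mtOGG1 males 42.4, 47.5 and 41.1. The genotypes overlapped in both sexes, and control male 1 was the lowest of all 12 mice. All 6 mtOGG1 mice lay below the control mean of their sex. The 6 controls averaged 52.8 ± 6.55 (SD) and the 6 mtOGG1 animals 47.6 ± 5.33 (SD). On the log2 scale the limma estimate was -0.14 (SE 0.11, adjusted p = 0.635), and it was -0.22 without control male 1 and -0.0938 without control male 2. The 95% interval of the fold ran from 0.77 to 1.07.

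Fcgr3 encodes the activating receptor of lower affinity, which binds IgG in complexes. Its values were 72.3, 78.3 and 102 in control females, and 73.7, 89.9 and 62.2 in mtOGG1 females. Control males stood at 52.9, 73.8 and 68.1, and mtOGG1 males at 63.2, 78.1 and 56.7. It was the most variable of the 5 genes, and the genotypes were interleaved in both sexes. The 6 controls averaged 74.5 ± 15.96 (SD) and the 6 mtOGG1 animals 70.6 ± 12.3 (SD). The log2 difference from limma was -0.07 (adjusted p = 0.885), and the 95% interval of the fold ran from 0.78 to 1.17. Control female 3 held the highest value of all mice, and without it the log2 fold change was 0.00420. With Slc17a6 as a covariate it was -0.11 (limma, adjusted p = 0.942).

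Fcer1g encodes the gamma chain through which Fcgr1 and Fcgr3 reach the surface and signal, and which the IgE receptor of mast cells also uses. Control females had 105, 97.2 and 95.03 normalized counts and mtOGG1 females 112, 116 and 95.2. Control males had 84.4, 101 and 90.2, and mtOGG1 males 98.0, 98.9 and 96.9. It was higher than the control mean of its sex in 5 of the 6 mtOGG1 mice, the exception being mtOGG1 female 3, and 2 mtOGG1 females exceeded every control female. The mean was 95.6 ± 7.54 (SD) over the 6 controls and 103 ± 8.91 (SD) over the 6 mtOGG1 animals. By limma the log2 difference was 0.10 (SE 0.09, adjusted p = 0.703), and the fold had a 95% interval from 0.94 to 1.23.

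Fcgr2b is the inhibitory receptor gene. Control females had 109, 99.1 and 121 normalized counts, and mtOGG1 females 104, 86.4 and 99.0. Control males had 74.3, 102 and 109, and mtOGG1 males 71.6, 85.0 and 73.1. All 6 mtOGG1 mice lay below the control mean of their sex and 4 of them below every control of their sex, but control male 1 fell among the mtOGG1 males. The 6 controls averaged 102 ± 15.7 (SD) and the 6 mtOGG1 animals 86.6 ± 13.2 (SD). The limma estimate on the log2 scale was -0.24 (SE 0.12, adjusted p = 0.430), rank 80 of 608 genes by p, with a 95% interval of the fold from 0.71 to 1.01.

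Markers of some other cell types stood apart from 0 beside Fcgr2b over both sexes, though less so in females. The 5 tested endothelial markers were all below 0 over both sexes, with a median log2 fold change of -0.22, and 0 passed. In males all 5 were below 0, with a median of -0.36. In females 2 of the 5 were above 0 and the median was -0.04. Their sums were 439 to 578 in control females, 472 to 570 in mtOGG1 females, 529 to 606 in control males and 440 to 491 in mtOGG1 males. The 8 oligodendrocyte markers lay on the other side, all above 0 with a median of 0.27 over both sexes. Their median was 0.02 in females and 0.49 in males, where 1 of the 8 passed, against 0.987% of 608 genes. Over both sexes 47.5% of all genes tested were above 0. All 4 astrocyte markers were above 0, with a median of 0.11, and 2 of 6 neuronal markers, with a median of -0.06. The part of any of these cell types in the Fcgr2b value was not tested. With Slc17a6 as a covariate the Fcgr2b log2 fold change was -0.27 (limma, adjusted p = 0.668), and with the mean of the 11 microglia markers as a covariate it was also -0.27 (limma, adjusted p = 0.238). The microglia markers themselves had a median of 0.05, with 6 of 11 above 0. Within groups Fcgr2b had r = 0.64 with their mean (exact permutation p = 0.0556, adjusted p = 0.208). After each sample was centred on its median this r was 0.36. The part of microglia in the Fcgr2b value was not tested.

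Ncf1 had the smallest spread over all 12 mice, 7.66% of its mean, although within groups that of Fcer1g was smaller. It stood at 40.6, 32.7 and 45.3 normalized counts in control females and at 37.4, 38.7 and 37.7 in mtOGG1 females. Control males had 40.7, 41.5 and 37.7, and mtOGG1 males 39.6, 37.6 and 39.3. All 6 mtOGG1 mice lay below the control mean of their sex, yet within a narrow band inside the range of the controls. The averages were 39.7 ± 4.21 (SD) for the 6 controls and 38.4 ± 0.934 (SD) for the 6 mtOGG1 animals. The log2 difference by limma was -0.04 (adjusted p = 0.901), and the fold had a 95% interval from 0.84 to 1.13, within which a change was not detectable at this depth. With Slc17a6 as a covariate the log2 difference was -0.0953 (limma, adjusted p = 0.942) over both sexes and -0.11 (limma, adjusted p = 0.946) in males.

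**Figure D2:**
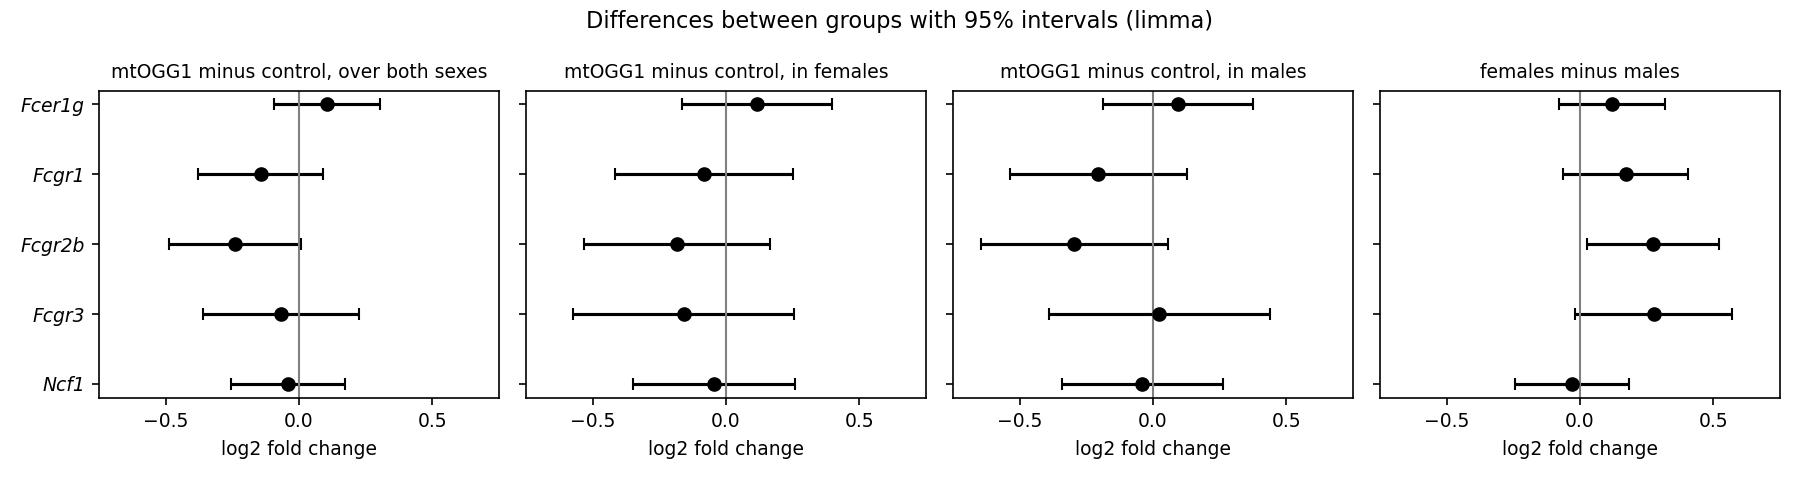
Log2 fold changes (horizontal axis) of the 5 genes in 4 comparisons, with 95% intervals from limma; the vertical line is no difference. The intervals cross 0 for all 5 genes in the 3 genotype panels, and the Fcgr2b interval lies above 0 in the panel of females minus males, where its adjusted p was 0.660.

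Within one sex the picture had wider intervals. In females 0 of the 5 genes passed, against a background of 0.0% of 608 genes (18 of them with an unadjusted p under 0.05), and log2 fold changes ran from -0.18 for Fcgr2b to 0.12 for Fcer1g. The Fcgr2b value was -0.11 without mtOGG1 female 2 or control female 3, and that of Fcer1g was 0.0616 without mtOGG1 female 2 and 0.20 without mtOGG1 female 3. Fcgr3, at -0.16 with all females, ran from -0.29 without mtOGG1 female 2 to -0.0156 without control female 3. In males 0 of 5 passed against 0.987% of the genes, and the values ran from -0.30 for Fcgr2b to 0.09 for Fcer1g. The Fcer1g value was 0.0333 without control male 1 and 0.16 without control male 2, and that of Fcgr1, at -0.21, was -0.36 and -0.10 without the same mice. The Fcgr2b value in males had a 95% interval from -0.65 to 0.05 (limma, adjusted p = 0.457), and it was -0.46 without control male 1 and -0.19 without control male 3. Groups of 3 that do not overlap were found for 0 of the 5 genes in either sex, whereas 5.26% of the tested genes were separated in females and 17.8% in males. These comparisons use the same mice as the one over both sexes and are not additional evidence.

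The genotype difference was not shown to differ between the sexes. In the interaction 0 of 5 members and 0.0% of 608 genes passed, with 29 genes and 0 members at an unadjusted p under 0.05. The differences of the female minus the male log2 fold change were -0.18 for Fcgr3, 0.12 for Fcgr1, 0.11 for Fcgr2b, 0.02 for Fcer1g and -0.00475 for Ncf1. The interval for Fcgr3, from -0.77 to 0.40, shows how large a difference between the sexes could go unseen with 3 mice a group. Single mice moved these values widely. Without 1 mouse at a time Fcgr3 ran from -0.32 (mtOGG1 female 2 left out) to -0.0397 (control female 3), Fcgr1 from 0.0221 (control male 2) to 0.27 (control male 1) and Fcgr2b from 0.00572 (control male 3) to 0.28 (control male 1).

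Females were then set against males over both genotypes. The 3 IgG receptor genes had higher values in females, and Fcgr2b and Fcgr3 had the largest, but 0 of 5 members passed, against 0.658% of the genes called and the same 0.658% separated without overlap. Fcgr2b averaged 103 ± 11.6 (SD, n = 6) in females and 85.9 ± 16.2 (SD, n = 6) in males, a log2 difference of 0.27 (limma, unadjusted p = 0.0326, adjusted p = 0.660), and was the 1 member with an unadjusted p under 0.05. Fcgr3 stood at 79.7 ± 14.1 (SD, n = 6) and 65.4 ± 9.76 (SD, n = 6), with a log2 difference of 0.28 (limma, adjusted p = 0.773). For Fcgr1 and Fcer1g the differences were 0.17 and 0.12, and for Ncf1 -0.03. Each of the 6 females had more Fcgr1 and more Fcgr2b than the mean of the males of its genotype.

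This direction was shared widely. Of the 608 genes, 406 were above 0 in females minus males, with a median of 0.04, beside 4 of the 5 members with a median of 0.17. The microglia markers had 10 of 11 above 0 and a median of 0.10, and their mean log2 level was 7.86 ± 0.165 (SD, n = 6) in females and 7.74 ± 0.0956 (SD, n = 6) in males. All 8 oligodendrocyte markers were above 0 too, with a median of 0.24 and 1 passing. Ttr averaged 367 ± 509 (SD, n = 6) in females and 990 ± 643 (SD, n = 6) in males, a log2 difference of -2.26 (limma, adjusted p = 0.768). The part of these markers in the members' values was not tested. With the microglia mean as a covariate the Fcgr2b and Fcgr3 differences were each 0.17, and that of Fcgr1 was 0.07, and 0 of them passed.

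Placed in order of the 4 group means, Fcgr1 and Fcgr2b ran alike: control females highest, then mtOGG1 females, control males and mtOGG1 males. In all 5 genes the values of mice overlapped between neighbours in the order. The order for Fcgr3 was control females, mtOGG1 females, mtOGG1 males and control males, and for Fcer1g mtOGG1 females, control females, mtOGG1 males and control males. For Ncf1 it was control males, control females, mtOGG1 males and mtOGG1 females.

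The balance of activating and inhibitory receptors can be followed within a mouse, where the scaling factor of the sample cancels. The log2 ratio of the Fcgr1 and Fcgr3 geometric mean to Fcgr2b was -0.70 ± 0.10 (SD, n = 3) in control females, -0.64 ± 0.29 (SD, n = 3) in mtOGG1 females, -0.72 ± 0.11 (SD, n = 3) in control males and -0.52 ± 0.07 (SD, n = 3) in mtOGG1 males. The absolute ratio reflects how well each probe reads its transcript, so that the differences between mice are the informative part. The mtOGG1 males, at -0.60 to -0.47, lay above the control males, at -0.85 to -0.64. Among single tested genes 17.8% were separated in males, in either direction. In females mtOGG1 mice held both the highest and the lowest ratio of all 12 mice.

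The ratio of the gamma chain to the inhibitory receptor, Fcer1g over Fcgr2b, differed more. Its log2 value was -0.09 ± 0.19 (SD) over the 6 controls and 0.26 ± 0.20 (SD) over the 6 mtOGG1 animals, a difference of 0.30 in females and 0.39 in males. In males the groups did not overlap, with 0.22 to 0.45 in mtOGG1 and -0.27 to 0.19 in control mice, while in females mtOGG1 female 3 lay inside the control range. Separation in males was common, at 17.8% of single tested genes, and its share among ratios of genes was not computed. These ratios were formed from members whose separate values were already known, and they are given as a description without a test.

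**Figure D3:**
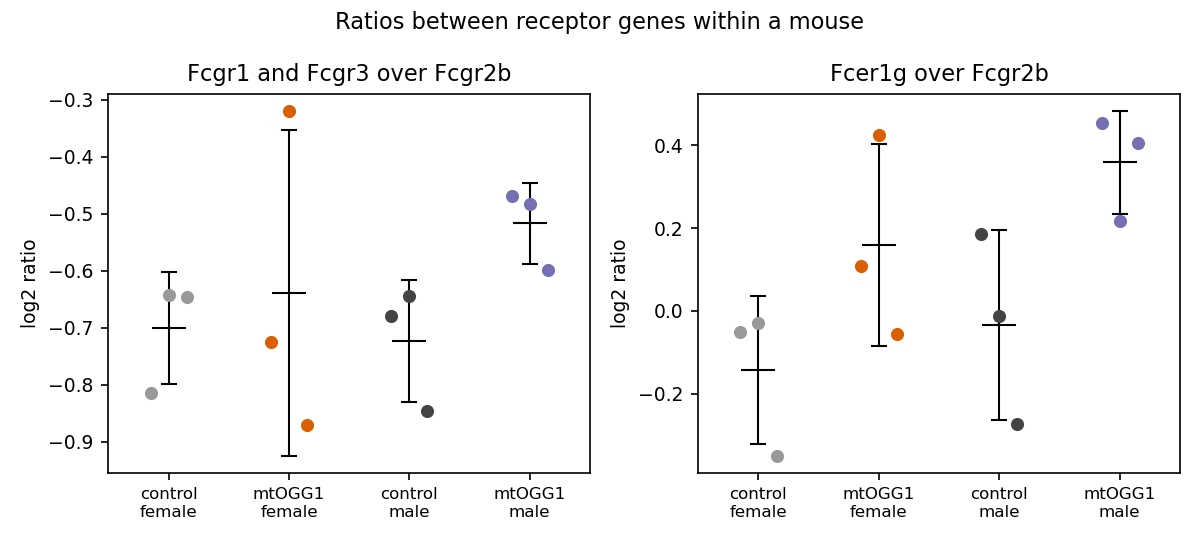
Log2 ratios within each mouse (vertical axis) for Fcgr1 and Fcgr3 over Fcgr2b (left) and Fcer1g over Fcgr2b (right) in the 4 groups. Points are mice and bars are means with SD. In males the mtOGG1 and control mice are separated in both panels, as were 17.8% of single tested genes, and in females they overlap in both.

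The spread between mice of a group was set beside the Poisson error of the counts, as a description without a test. For Ncf1 the spread within groups was 8.65% of the mean, against 16.2% from counting, and for Fcer1g 7.61% against 10.1%. For Fcgr1 it was 11.1% against 14.3%. Fcgr2b, at 12.9% against 10.5%, and Fcgr3, at 17.9% against 12.0%, had a spread above counting error, by factors of 1.23 and 1.49. Both factors were below the median of 1.73 over the 537 genes above the floor in all mice.

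Single mice stood out across several members. Control female 3 had the highest level of 4 of the 5 genes, all but Fcer1g, and control male 1 had the lowest of 3, Fcgr1, Fcgr3 and Fcer1g. Control female 3 ranked second of 12 in the mean of the microglia markers and control male 1 ranked last. Both are control mice, so that they widen the spread of the control groups and not of the mtOGG1 groups.

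**Figure D4:**
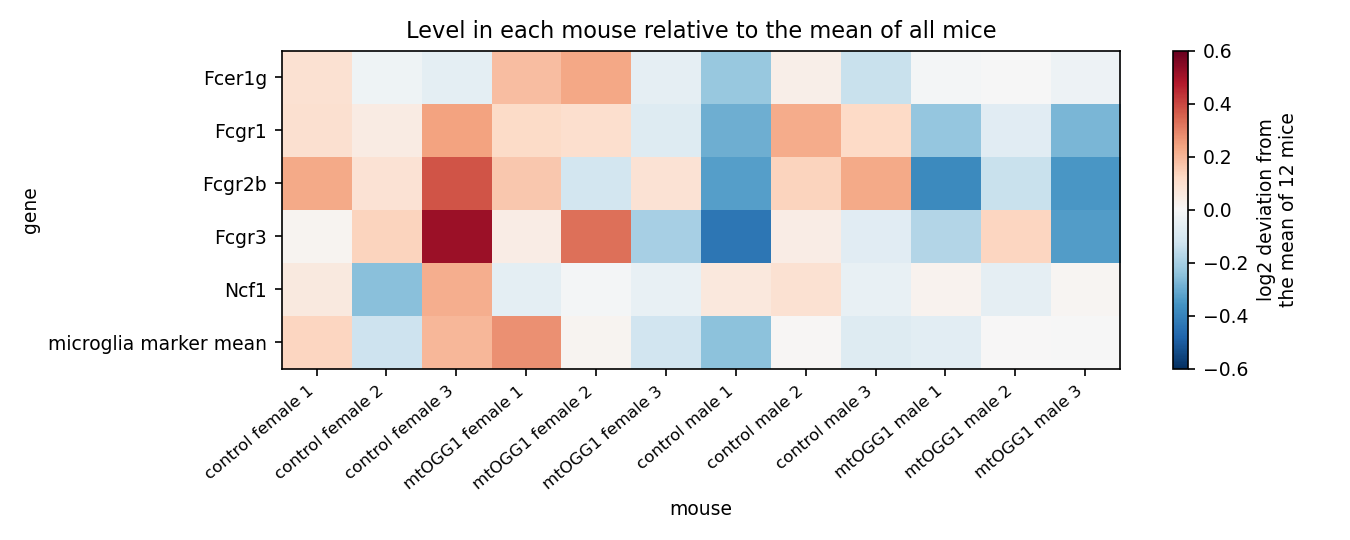
Log2 deviation of each gene, and of the mean of 11 microglia markers, from its mean over 12 mice (colour), with mice in columns grouped by genotype and sex. Control female 3 is red for Fcgr1, Fcgr2b, Fcgr3 and Ncf1 and control male 1 is blue for the 4 receptor genes, while the Ncf1 row is nearly white in the mtOGG1 mice.

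Whether the members rose and fell together was examined on deviations from group means over the 12 mice, by permuting mice inside each group (all 1296 orders, exact, two-sided), with Benjamini-Hochberg adjustment over 15 relations. Pearson's r was positive for all 10 pairs of members before centring. After each sample was centred on its median, which removes a scaling shared by all genes, it was negative for Fcer1g with Fcgr2b (-0.17) and for Ncf1 with each of the receptor genes (-0.49 to -0.13). Fcgr1 and Fcgr3 were closest, with Pearson r = 0.84 (exact permutation p = 0.00386, adjusted p = 0.0579) and Spearman rho = 0.87 (exact permutation p = 0.00540, adjusted p = 0.0405). The r was 0.87 without the 2 mice farthest from the median of Fcgr1, and 0.80 after median centring. Of the 15 relations 0 passed at 0.05 by Pearson's r after adjustment and 2 by Spearman's rho, this pair and Fcgr1 with the microglia markers. Fcgr1 and Fcgr2b had r = 0.80 (exact permutation p = 0.0386, adjusted p = 0.193), and Fcgr2b and Fcgr3 r = 0.51 (exact permutation p = 0.161, adjusted p = 0.327).

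Against the mean of the microglia markers, Fcgr1 had r = 0.70 (exact permutation p = 0.00926, adjusted p = 0.0694) and rho = 0.73 (exact permutation p = 0.00386, adjusted p = 0.0405). After median centring this r was 0.34, beside 0.80 for Fcgr1 with Fcgr3. Without the 2 mice farthest from the median of Fcgr1 it was 0.65. Ncf1 followed no other member, with r from 0.08 to 0.24, and its r of 0.51 with the microglia markers was -0.06 without control females 2 and 3.

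**Figure D5:**
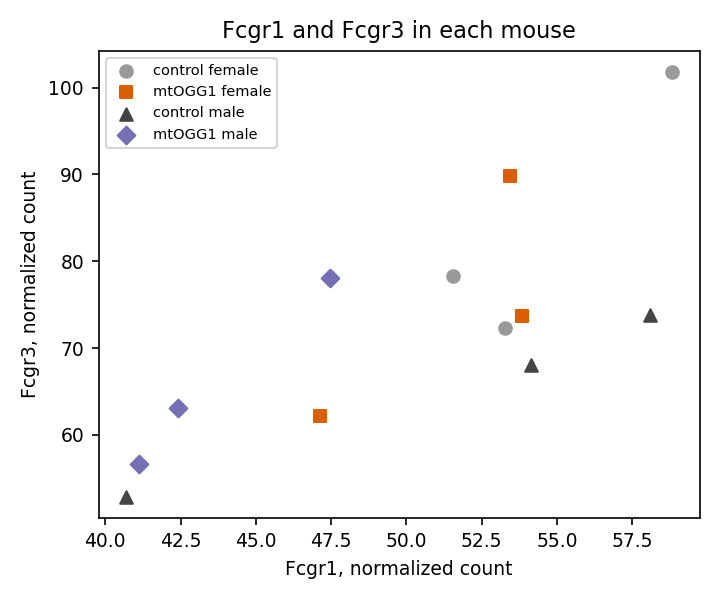
Normalized count of Fcgr3 (vertical axis) against Fcgr1 (horizontal axis), 1 point per mouse and 1 marker per group; the axes do not start at 0. Control male 1 lies at the lower left (40.7 and 52.9) and control female 3 at the upper right (58.8 and 102); the order of Fcgr3 does not follow that of Fcgr1 for every pair of mice within the female groups.

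The genes whose levels were most like those of each member over the 12 mice were found by Pearson correlation of log2 levels against the 603 tested genes that are no members. They were picked as the highest of many and therefore carry no test. For Fcgr1 they were Chn2 (r = 0.87), Tlr4 (r = 0.87), a receptor for bacterial lipopolysaccharide found on microglia, and Rad1 (r = 0.86). For Fcgr3 they were Xrcc6 (r = 0.84), Pla2g5 (r = 0.84) and Tlr4 (r = 0.83), and for Fcgr2b Rad1 (r = 0.82), Kdm6a (r = 0.81) and Irf2 (r = 0.78). For Fcer1g they were Fancc (r = 0.79), Jarid2 (r = 0.79) and Ralb (r = 0.76), and for Ncf1 Pdpn (r = 0.83), Olfml3 (r = 0.80) and Serpinf1 (r = 0.74). Of these genes Olfml3 is among the microglia markers. All share the same samples and their scaling. Spearman's rho was lowest for Ncf1 with Pdpn, at 0.44, beside 0.69 for Ncf1 with Olfml3 and 0.67 with Serpinf1. Unlike the correlations of members given above, those with these genes include the differences between groups. Computed in the same way, r was 0.80 for Fcgr1 with Fcgr3 and 0.59 for Fcgr1 with the microglia markers.

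The partners of these proteins were examined next. Of 33 listed genes of Fc receptor signalling, 18 were in the table and 15 tested, and 0 passed over both sexes, with 5 above 0 and a median log2 fold change of -0.05 beside -0.00860 for all genes. Blnk, an adaptor of Syk signalling, had the smallest p, at 110 ± 22.7 (SD, n = 6) in controls against 76.8 ± 26.3 (SD, n = 6) with mtOGG1, and a limma log2 difference of -0.55 (adjusted p = 0.315). Pik3ca, a catalytic subunit of PI3 kinase, had -0.14 (adjusted p = 0.415), Inpp5d, which encodes SHIP, 0.16 (adjusted p = 0.727), and Pik3r2, a regulatory subunit of PI3 kinase, -0.10 (adjusted p = 0.740), all in the limma fit. Syk had -0.17, and Tyrobp, an ITAM adaptor related to the gamma chain in role, had -0.00289. In females minus males all 15 were above 0, with a median of 0.09 and 0 passing.

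Among the other oxidase genes Rac1 and Rac2, the GTPases of the complex, were in the table. Their log2 fold changes over both sexes were 0.03 for Rac1 and 0.00686 for Rac2, which stood at the floor in 8 of the 12 mice and exceeded it in 4. The membrane subunits and the other cytosolic subunits were not analysed here. Ncf1 is thus the main measured gene of this enzyme apart from Rac1, which all cells use.

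Of 20 other listed ITAM or ITIM receptors of myeloid cells, 12 were in the table, 4 were tested and 0 passed, with a median of 0.08. Trem2, a lipid-sensing receptor of microglia, had a log2 difference of 0.17 (limma, adjusted p = 0.6252), Lilrb4a 0.13, Cd72 -0.17 and Cd33 0.02, and Lilrb4a and Cd72 exceeded the floor in 6 of 12 mice each. Of 23 listed opsonins and phagocytic receptors, 16 were in the table, 13 were tested and 0 passed, with a median of -0.00810. Mertk, a receptor for dying cells, had the smallest p at -0.23 (limma, adjusted p = 0.401), followed by C1qb, a chain of the complement opsonin C1q, at -0.11 (limma, adjusted p = 0.635), Cd36 at 0.12 and C3ar1 at 0.16.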

How the data were processed

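Hippocampal RNA of 12 mice was counted with an nCounter panel, and the authors normalized the deposited signal values in nCounter Advanced Analysis, as the design text of the series states. In the deposited table each gene signal above 20 is a whole count times 1 factor per sample, from 0.82 to 1.27 (within 0.01 for 100% of such values). Lower values are set to 20, which leaves no full count table. The basis of these factors is not given in the sources used.

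For each gene, limma 3.58.1 (R 4.3.3) fitted 4 group means to log2(value + 1). Variances were moderated along a trend, and p-values were adjusted by Benjamini-Hochberg, with 0.05 as threshold, over the 608 genes above 20 in at least 3 samples. Fold changes are on that scale, which understates low genes. P-values measure the spread between these samples, since nothing in the labels describes how the animals were related. The script was tested on simulated data. Replicates differed by more than sampling noise (lowest chi-square per degree of freedom 2.47 over 12 pairs within groups).

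Named genes are the members, up to 4 genes of smallest p in each pathway list, the 3 genes most correlated with each member, and markers beside a result. Syk and Tyrobp were named in the signalling list outside this rule, after their values were seen. The members and lists were chosen with earlier results of these data known. Other pseudocounts, filters, scalings, variance settings, covariates, a replicate block and fits with 1 mouse left out were tried. Correlations used scipy 1.17.1 in Python 3.11.15, and figures matplotlib 3.10.9. Of the gene symbols, 763 matched a current RefSeq symbol and 7 a synonym.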

Additional observations from a re-analysis of the deposited data

How the results depend on the processing

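None of the 25 member values (5 genes in 5 comparisons) passed under any of the 605 alternatives run, where the lowest adjusted p was 0.180 (limma, Fcgr2b in males with the microglia covariate). Direction was kept in 581 and turned in 24, always for values under 0.07 in size. Over both sexes, Ncf1 turned to 0.00148 with panel reference genes. In males, Fcgr3 turned to -0.0269 with the Slc17a6 covariate and -0.0440 with the microglia covariate, and Ncf1 to 0.0192 with reference genes. In the interaction, Fcer1g turned to -0.00714 with reference genes, and Ncf1 to 0.0113 with median centring, 0.0261 with Slc17a6 and 0.0355 with the microglia covariate. With 1 mouse left out, values over both sexes ran from -0.14 to 0.00420 for Fcgr3 and -0.11 to 0.00800 for Ncf1. Ncf1 ran from -0.17 to 0.0564 in females, from -0.13 to 0.10 in the interaction and from -0.0803 to 0.0338 between the sexes, Fcgr3 from -0.11 to 0.13 in males and Fcer1g from -0.0479 to 0.11 in the interaction.

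Counts over all genes moved more. The 8 calls over both sexes were 5 with pseudocounts of 5 or 20 and with values above 20 in all samples, 3 with a mean of at least 50, 0 without the filter, and 3 to 12 with 1 mouse left out. The 6 calls in males were 0 without the filter, 12 with median centring (3 higher, against 1 of 6), 11 with reference genes (4 higher), 12 without a variance trend, 11 with robust variances, 10 with the compared groups alone, 13 with the microglia covariate, and 4 to 19 with 1 mouse left out. The 4 calls between the sexes were 2 with values above 20 in all samples, without the filter, with reference genes (0 higher, against 2 of 4) and with the microglia covariate, and 2 to 5 with 1 mouse left out. With 1 mouse left out, 0 to 2 genes passed in females and 0 to 1 in the interaction. The causes of these moves were not tested.

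The replicate numbers in the labels did not pair the mice: 8 of 18 same-numbered pairs of samples had a correlation of deviations above 0.1, and 5 of 12 samples correlated best with their own number. With the replicate block the counts were 7 over both sexes, 8 in males and 4 between the sexes, and no member passed. With 32 to 133 counts per gene and mouse, depth limits small differences.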
